A study of Homo sapiens with 24 samples.

Results

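The genes described here are 32 genes of cholesterol and fatty acid synthesis, chosen by gene name from the 58051 genes of the count table. They are 7 genes of the mevalonate route, 11 genes that turn farnesyl diphosphate into cholesterol, 4 regulators, 3 genes of intracellular sterol transport, 6 genes of fatty acid and glycerolipid synthesis and the efflux pump ABCA1. All 32 were among the 18852 genes that passed the expression filter. The RNA came from LUHMES cells, an immortalised human mesencephalic precursor line, differentiated into neurons of dopaminergic type with tetracycline, cAMP and GDNF. Each group had 3 libraries, made after 6 h of exposure. The groups were MS275 at 5 µM (entinostat, which blocks class I histone deacetylases), MPP at 5 µM (1-methyl-4-phenylpyridinium), rotenone at 1 µM (which blocks complex I of mitochondria), methyl mercury at 0.5 µM (given as the chloride), the zinc fungicide ziram at 2 µM, 6-HD at 1 µM (6-hydroxydopamine), paraquat at 5 µM and DMSO at 1%. All toxicant stocks were in DMSO, and all 8 groups share 1 cell line, so no other genetic background was measured. The labels call the libraries biological samples in triplicate, and p-values measure the spread between them.

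Cells make cholesterol from acetyl-CoA through mevalonate, squalene and lanosterol. The transcription factor SREBP2, encoded by SREBF2, switches on most of these enzymes when sterol in the endoplasmic reticulum is low, and SREBP1, encoded by SREBF1, acts mainly on fatty acid genes. INSIG1 and INSIG2 hold both factors in the endoplasmic reticulum when sterol is plentiful, and oxysterol receptors of the LXR family switch on SREBF1 and ABCA1. In the brain cholesterol is made locally, since lipoproteins of the blood do not cross the blood-brain barrier.

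Library totals ranged from 9.69 megareads (rotenone replicate 2) to 46.9 megareads (ziram replicate 2). Levels are given as CPM, a gene's counts in each megaread after TMM scaling of library totals. In DMSO libraries the pan-neuronal markers summed to 7073 to 8607 CPM. Of the dopaminergic markers, SLC6A3 (the dopamine transporter) had 577.6 to 697.2 CPM and TH (tyrosine hydroxylase) 45.9 to 55.2 CPM in DMSO libraries, whereas LMX1A and FOXA2 were at 0 in every group and SLC18A2 (the vesicular monoamine transporter) had 0.07 to 0.44 CPM. In DMSO libraries the astrocyte markers summed to 40.02 to 43.82 CPM and the oligodendrocyte markers to 266.9 to 288.7 CPM, of which OLIG2 had 107.6 to 119.2, CNP 95.98 to 100.5 and OLIG1 38.92 to 47.42, while MOG, MAG and SOX10 were at 0. The difference in log2 level between GC-rich genes (at least 56.3% GC) and GC-poor genes (at most 41.6%), set against the DMSO mean, varied among libraries of the same group, most in rotenone (-0.42, 0.25 and 0.24 in replicates 1, 2 and 3), methyl mercury (-0.19, -0.47 and 0.08) and MS275 (0.47, 0.42 and 0.02). Its part in any difference below was not tested, and results fitted with GC-corrected offsets are given in the closing section. In these bulk samples a lower level can mean fewer cells that express a gene or less RNA per cell, and the 2 cannot be told apart.

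RefSeq promoter windows (GRCh38.p14, 250 bases before to 50 bases after the start) were found for 28 of the 32 genes. SREBPs act at sterol response elements together with the CCAAT-binding factor NF-Y, so the windows were searched on both strands for CCAAT (read as ATTGG on the other strand), for the letters TCACNCCAC of a sterol response element, and for CACGTG, an E-box of the kind that basic helix-loop-helix factors bind. Some genes have more than 1 window (35116 windows over 27305 genes), and a gene was counted if any of its windows matched. CCAAT stood in windows of 20 of the 28 genes (71.4%), against 39.7% of all 27305 genes with a window. TCACNCCAC was found for 1 gene, SREBF2 (3.57%, against 1.39% of all genes), and CACGTG for 4 genes, LSS, SC5D, INSIG1 and ABCA1 (14.3%, against 8.77%). A match is a description of the letters and not a bound site. The stretches below, 5′ to 3′ on the strand of the gene with the matches in capitals, are those of 5 genes called in the comparisons that follow whose windows hold CCAAT, 1 carrier, 1 regulator and 3 sterol enzymes, and of SREBF2 for its sterol response element letters. The window of SREBF1 held none of the searched letters. They are STARD4 at chr5:111512641-111512716 (minus strand), MSMO1 at chr4:165327464-165327659 (plus), INSIG1 at chr7:155297688-155297848 (plus), TM7SF2 at chr11:65111778-65111822 (plus), NSDHL at chrX:152830815-152831003 (plus) and SREBF2 at chr22:41832952-41833023 (plus).
STARD4: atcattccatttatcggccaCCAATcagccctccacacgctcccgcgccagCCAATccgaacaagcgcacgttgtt
MSMO1: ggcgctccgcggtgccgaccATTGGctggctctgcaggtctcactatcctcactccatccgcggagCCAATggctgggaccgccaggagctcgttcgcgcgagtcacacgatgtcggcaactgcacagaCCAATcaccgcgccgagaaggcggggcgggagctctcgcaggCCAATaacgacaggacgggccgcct
INSIG1: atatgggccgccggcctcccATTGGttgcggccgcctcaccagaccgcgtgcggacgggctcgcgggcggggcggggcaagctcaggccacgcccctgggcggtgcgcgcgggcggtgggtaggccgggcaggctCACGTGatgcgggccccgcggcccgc
TM7SF2: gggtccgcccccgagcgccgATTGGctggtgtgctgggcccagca
NSDHL: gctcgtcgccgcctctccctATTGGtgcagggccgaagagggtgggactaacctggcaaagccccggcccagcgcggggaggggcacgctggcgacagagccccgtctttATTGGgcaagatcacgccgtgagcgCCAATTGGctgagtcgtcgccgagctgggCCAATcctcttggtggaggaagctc
SREBF2: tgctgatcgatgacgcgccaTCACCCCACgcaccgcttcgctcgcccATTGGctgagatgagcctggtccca

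In DMSO libraries the level per length of exon, in CPM per kb, was highest for SCD, the desaturase that makes oleic acid, at 190.6 ± 3.7 (SD, n = 3). HMGCS1, which makes HMG-CoA at the entry to the mevalonate route, followed at 105.6 ± 6.13 CPM per kb, then MSMO1, a methylsterol oxidase, at 95.94 ± 5.48 and FDFT1, squalene synthase, at 93.96 ± 3.9. The ranges of HMGCS1 and MSMO1 overlapped, as did those of MSMO1 and FDFT1, so the order of these neighbours is not resolved. SREBF1 stood at 10.84 ± 0.795 CPM per kb, with CYP51A1 (10.35), SC5D (10.08), LPIN1 (9.81), HSD17B7 (7.36) and MVK (6.84) below it. At the low end were ABCA1 (5.83 ± 0.323 CPM per kb), the lysosomal cholesterol transporter NPC1 (5.66 ± 0.117), INSIG2 (3.58 ± 0.577) and NPC2 (1.56 ± 0.237), the soluble partner of NPC1. SREBF2 stood at 42.59 ± 2.17 CPM per kb. NPC2 had 65 to 120 counts per DMSO library and is the least precisely measured of the 32.

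**Figure D1:**
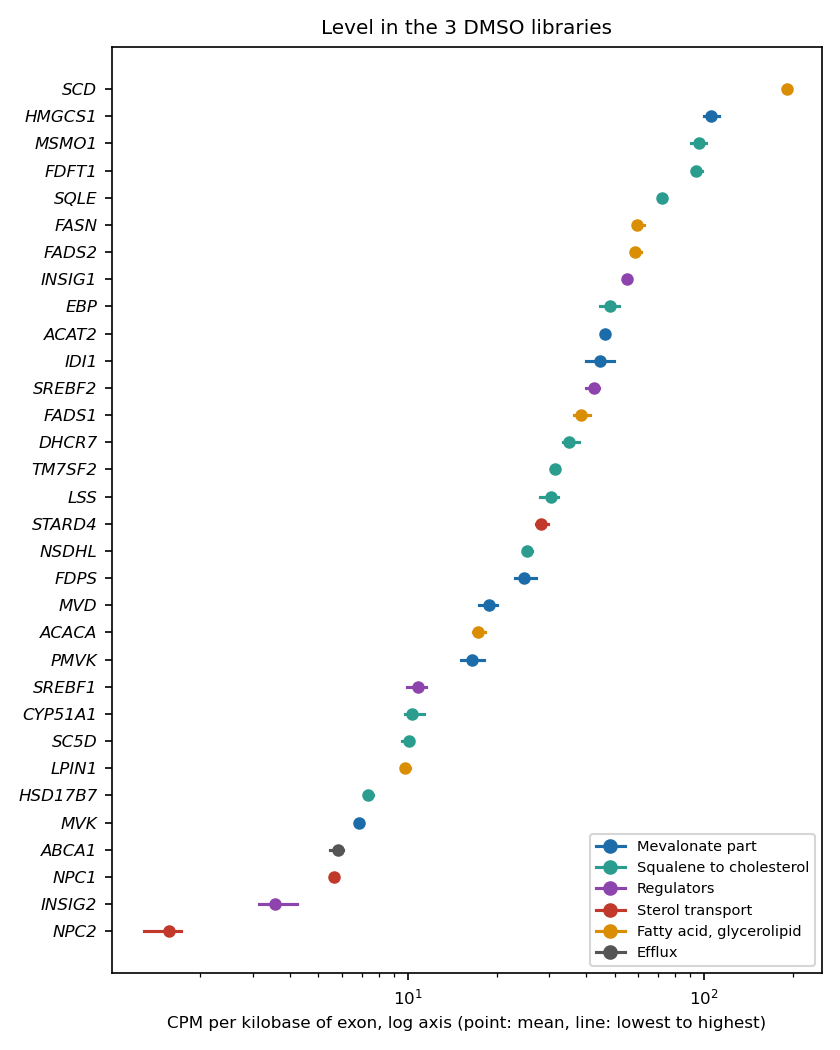
Levels of the 32 genes in the DMSO libraries, in CPM per kb of exon on a log axis; the point is the mean of 3 libraries and the line runs from the lowest to the highest library. SCD stands at the top (190.6) and NPC2 at the bottom (1.56).

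The quasi-likelihood F test of edgeR over all 8 groups called 25 of the 32 genes at an adjusted p under 0.05, against 55.3% of all genes tested. The 7 not called were MVK, PMVK and MVD, which act in sequence on mevalonate, CYP51A1 (the demethylase of lanosterol), INSIG2, NPC2 and ACACA (acetyl-CoA carboxylase). Against DMSO, 13 genes were called in none of the 7 toxicants, 12 in 1, 6 in 2 and 1 in 3. These are 40.6%, 37.5%, 18.8% and 3.12% of the 32, against 50.7%, 40.2%, 7.33% and 1.73% of all genes tested. The gene called in 3 was ACAT2, the cytosolic thiolase that joins acetyl-CoA units at the start of the mevalonate route. All 7 toxicants were set against the same 3 DMSO libraries, so the 7 comparisons are not independent. The genes called by none were MVK, PMVK, MVD, IDI1, FDPS, CYP51A1, HSD17B7, INSIG2, NPC1, NPC2, ACACA, FASN and ABCA1.

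**Figure D2:**
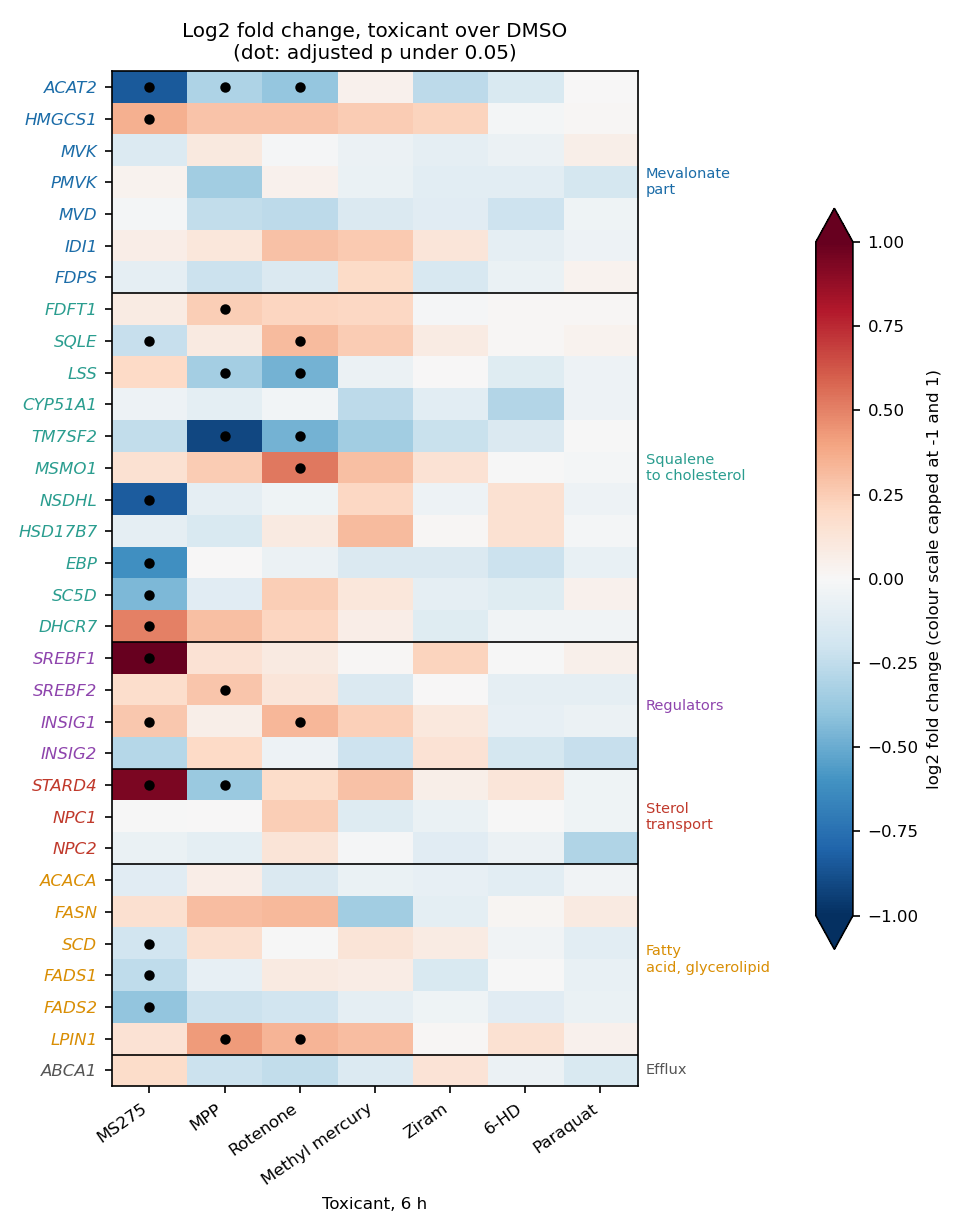
Differences of the 32 genes (rows, by role) in the 7 toxicants (columns) against DMSO, as log2 fold changes with the colour scale ending at -1 and 1; a dot marks an edgeR adjusted p under 0.05. MS275 holds 13 dots, MPP and rotenone 7 each, and the other 4 columns none.

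MS275 raised the regulators SREBF1 and INSIG1, the sterol carrier STARD4 and the enzymes HMGCS1 and DHCR7, and lowered ACAT2, SQLE, NSDHL, EBP, SC5D and the desaturases SCD, FADS1 and FADS2. The edgeR test called 5 genes higher and 8 lower of 32 (40.62%), against 43.2% of all genes tested (20.1% higher and 23% lower). All 3 MS275 libraries were above all DMSO libraries in 10 of the 32 genes, against 28.1% of all genes tested, and below them in 10, against 27.5%. The median log2 fold change over the 32 genes was -0.04, and over all genes 0.04. By role, 1 of 7 mevalonate genes was higher and 1 lower, 1 of 11 sterol genes higher and 4 lower, 2 of 4 regulators higher, 1 of 3 transport genes higher and 3 of 6 fatty acid genes lower.

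SREBF1 (17:17810399-17837002, minus strand) had 254.8, 246.8 and 195.5 CPM in the MS275 libraries, against 80.04, 88.41 and 92.58 CPM in the DMSO libraries. Every MS275 library was above every DMSO library, and this was the largest change among the 32 genes, at a log2 fold change of 1.42 ± 0.13 (SE; fold 2.67, edgeR adjusted p = 3e-10). INSIG1, whose product retains the SREBPs in the endoplasmic reticulum, had 243.1, 258.8 and 224 CPM in MS275, against 199.4, 199.3 and 202.3 CPM in DMSO. Its groups did not overlap either, and the log2 fold change was 0.27 ± 0.071 (edgeR adjusted p = 0.00236). SREBF2 had 352.2, 354.1 and 385.3 CPM in MS275, against 303.3, 327.8 and 334.5 CPM in DMSO, and did not pass the edgeR test. DESeq2 called it higher (0.23, DESeq2 adjusted p = 0.0193), as it did LSS (0.25, DESeq2 adjusted p = 0.0072) and LPIN1 (0.20, DESeq2 adjusted p = 0.0225). The median log2 fold change of all genes in the DESeq2 fit was 0.11, against 0.04 with edgeR. The fit with GC-corrected offsets added other calls, TM7SF2 (-0.52, edgeR adjusted p = 2.64e-06), MVK, MVD, FDPS and ACACA lower and IDI1 and MSMO1 higher.

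STARD4 (5:111496033-111512590, minus strand), a soluble protein that carries cholesterol between membranes, had 283.3, 299.6 and 341.5 CPM in MS275, against 154, 158 and 169.3 CPM in DMSO. All MS275 libraries lay above all DMSO libraries, with a log2 fold change of 0.94 ± 0.095 (fold 1.92, edgeR adjusted p = 2.83e-09). The GC content of the longest transcript was 62.84% for SREBF1 and 34.24% for STARD4. Its part in these differences was not tested. Genes on the opposite strand share 6.92% of the exon bases of SREBF1 (RAI1) and 2.18% of those of STARD4 (STARD4-AS1). NPC1 and NPC2, which move cholesterol out of lysosomes, did not pass.

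In the mevalonate route, ACAT2 (6:159760328-159779055, plus strand) had 107.4, 112.6 and 115.7 CPM in MS275, against 198.1, 200.6 and 201.8 CPM in DMSO. The groups were far apart relative to their spread, with a log2 fold change of -0.84 ± 0.072 (fold 0.559, edgeR adjusted p = 1.52e-10). Exons of ACAT2 overlap those of TCP1 on the opposite strand over 397 bases (9.23% of the ACAT2 exon bases) and, in the GENCODE 29 models, those of a SOD2 model (26.5%) whose identifier is not among those of the count table, and whether the counting used strand is not given in the sources used here. TCP1, a chaperonin subunit, was also lower in MS275 (log2 fold change -0.44, edgeR adjusted p = 7.39e-06), as was SOD2, a mitochondrial superoxide dismutase listed in the count table under another identifier (-0.42, edgeR adjusted p = 0.000367). The part of shared reads in the ACAT2 difference was not tested. HMGCS1 moved the other way, with 583.3, 588.7 and 736 CPM in MS275, against 471.1, 490.9 and 527.9 CPM in DMSO. Its groups did not overlap (log2 fold change 0.36 ± 0.097, edgeR adjusted p = 0.00343), but replicate 3 was the highest MS275 library, and the log2 fold change was 0.23 when it was left out (edgeR adjusted p = 0.0494). An antisense gene shares 15% of the HMGCS1 exon bases.

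Among the enzymes after squalene, the sterol dehydrogenase NSDHL (X:152830967-152869729, plus strand) had 28.07, 28.08 and 28.5 CPM in MS275, against 52.29, 49.11 and 49.61 CPM in DMSO. The MS275 libraries lay close together and below all DMSO libraries (log2 fold change -0.83 ± 0.10, edgeR adjusted p = 1.14e-07). EBP, a sterol isomerase, had 78.24, 77.36 and 72.42 CPM in MS275, against 124.2, 117 and 107.8 CPM in DMSO, without overlap (-0.61 ± 0.092, edgeR adjusted p = 2.74e-06). SC5D, the desaturase next in the pathway, had 40.62, 40.91 and 42 CPM in MS275, against 57.99, 53.47 and 56.92 CPM in DMSO, also without overlap (-0.45 ± 0.096, edgeR adjusted p = 0.000323). DHCR7, the reductase that completes cholesterol after SC5D, went against these, with 222.5, 209.6 and 187.4 CPM in MS275 and 157.1, 142.8 and 138.7 CPM in DMSO. All MS275 libraries were above all DMSO libraries (0.50 ± 0.10, edgeR adjusted p = 0.000181). SQLE, squalene epoxidase, had 246.4, 256.7 and 295.4 CPM in MS275, against 320.7, 305.5 and 309.6 CPM in DMSO. The groups did not overlap (-0.23 ± 0.072, edgeR adjusted p = 0.0102), but without MS275 replicate 1 the call ended (edgeR adjusted p = 0.122). The other 6 sterol genes did not pass.

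The desaturases of fatty acid synthesis were lower in MS275. FADS2, which begins the synthesis of long polyunsaturated fatty acids, had 506.8, 512 and 454.8 CPM in MS275, against 629.9, 677.9 and 625.2 CPM in DMSO (log2 fold change -0.39 ± 0.093, edgeR adjusted p = 0.00103). Its neighbour FADS1 had 327.1, 324.4 and 339.4 CPM in MS275, against 422.1, 374.1 and 384.5 CPM in DMSO (-0.25 ± 0.069, edgeR adjusted p = 0.00361). Neither pair of groups overlapped. The exons of FADS1 and FADS2 share 490 bases on opposite strands of chromosome 11, and the part of shared reads was not tested. SCD had 849.9 to 935 CPM in MS275 and 1011 to 1045 CPM in DMSO (-0.19 ± 0.063, edgeR adjusted p = 0.0163), and this call ended without DMSO replicate 2 (edgeR adjusted p = 0.0542), DMSO replicate 3 (0.092) or MS275 replicate 1 (0.147). FASN (fatty acid synthase), ACACA and LPIN1 did not pass. Summed by role, the regulators stood at 850 ± 27.9 CPM in MS275 and 623.4 ± 25.9 CPM in DMSO, and the transport genes at 369.3 ± 34.3 and 221.9 ± 8.5 CPM (SD, n = 3 each). Within these sums SREBF1 alone averaged 232.4 CPM in MS275 and 87.01 CPM in DMSO, and STARD4 alone 308.2 and 160.4 CPM. NPC1 averaged 57 and 57.17 CPM, and NPC2 4.13 and 4.3 CPM. The sum of all 32 genes was 7009 ± 87.9 CPM in MS275 and 6852 ± 46.7 CPM in DMSO. Dopaminergic markers summed to 1043 to 1256 CPM in MS275 and 653.6 to 772.7 CPM in DMSO (6 of 9 called higher, 1 lower). SLC6A3 alone had 577.6 to 697.2 CPM in the DMSO libraries. Astrocyte markers summed to 51.17 to 53.03 CPM in MS275 and 40.02 to 43.82 CPM in DMSO (4 of 6 higher, 1 lower). Precursor and cycling markers summed to 423.1 to 460.4 CPM in MS275 and 347 to 369.8 CPM in DMSO (4 of 8 higher, 1 lower). Their part in the results was not tested.

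**Figure D3:**
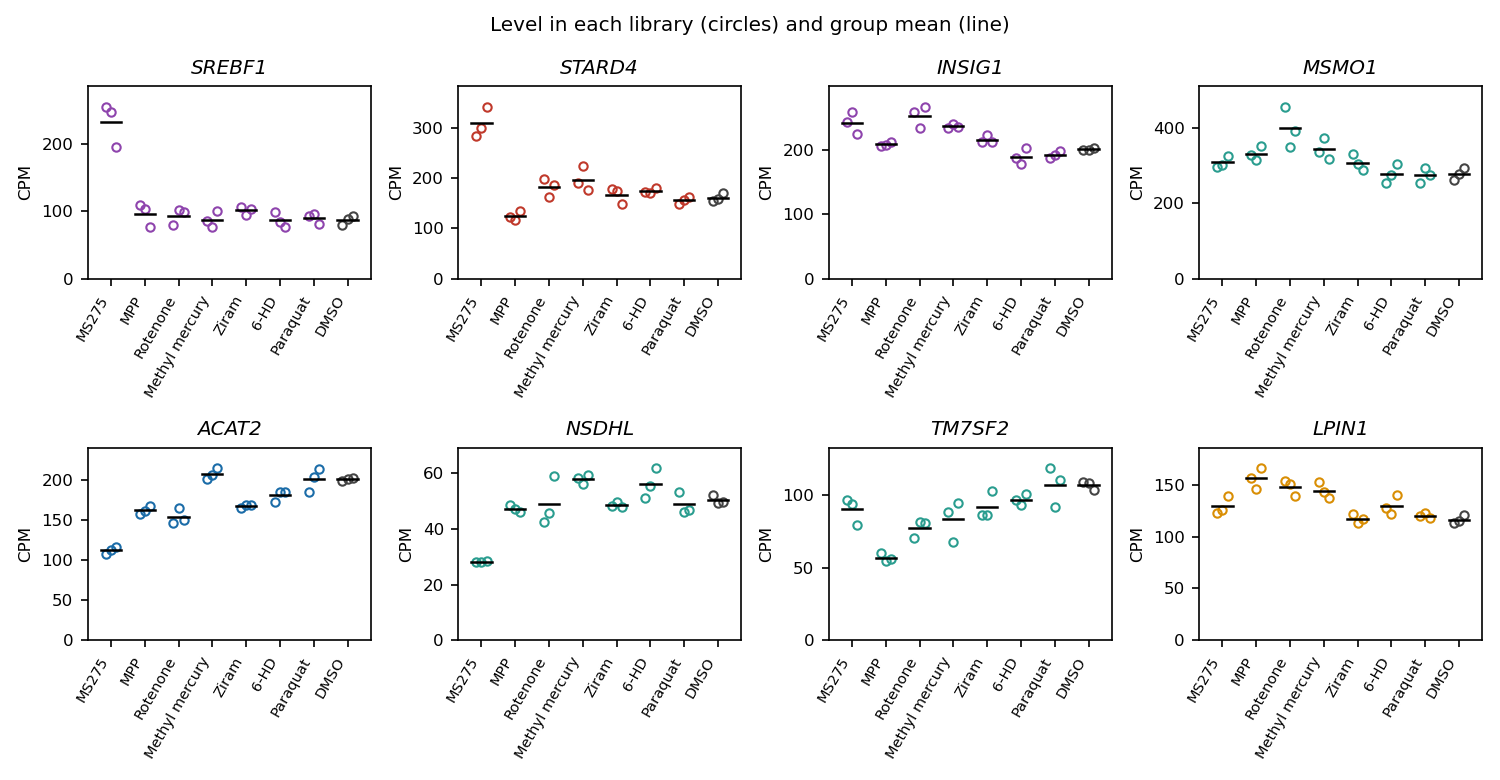
Level of 8 genes in each library, in CPM from 0, with the toxicants to the left and DMSO at the right of each panel; circles are libraries and lines are means of 3. SREBF1 and STARD4 stand highest in MS275, MSMO1 in rotenone, and TM7SF2 lowest in MPP (54.83 to 59.7 CPM, against 103.6 to 109.1 CPM in DMSO).

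MPP lowered the sterol reductase TM7SF2, lanosterol synthase, ACAT2 and STARD4 and raised the phosphatidate phosphatase LPIN1, squalene synthase and SREBF2. The edgeR test called 3 genes higher and 4 lower of 32 (21.88%), against 10.8% of all genes tested (5.77% higher and 5.02% lower). On library totals without TMM scaling the split was 1 higher and 9 lower of 32, and over all genes 592 higher and 1564 lower in place of 1088 and 946, with FDFT1 and SREBF2 no longer called (edgeR adjusted p = 0.118 and 0.163). The MPP libraries all lay above the DMSO libraries in 9 genes, against 18.8% of all genes tested, and below them in 10, against 17.5%. The median log2 fold change over the 32 genes was 0.00298, and over all genes 0.00173.

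TM7SF2 (11:65111845-65116384, plus strand), a reductase of the sterol ring that shares its step with another enzyme, had 59.7, 54.83 and 56.1 CPM in MPP, against 109.1, 108.3 and 103.6 CPM in DMSO. All MPP libraries lay far below the DMSO libraries (log2 fold change -0.91 ± 0.11, fold 0.532, edgeR adjusted p = 1.08e-06). LSS (21:46188141-46228824, minus strand), lanosterol synthase, had 182.8, 180.6 and 157 CPM in MPP, against 202.8, 224.4 and 233 CPM in DMSO. Its groups did not overlap (-0.34 ± 0.085, edgeR adjusted p = 0.00704), and the call ended without DMSO replicate 3 (edgeR adjusted p = 0.0538) or MPP replicate 3 (0.0675). FDFT1, which makes squalene, had 596.9, 557.7 and 587 CPM in MPP, against 512.1, 474.8 and 479.6 CPM in DMSO. It was higher without overlap (0.25 ± 0.067, edgeR adjusted p = 0.0138), and the call ended without DMSO replicate 2 (edgeR adjusted p = 0.0797), DMSO replicate 3 (0.0633) or MPP replicate 1 (0.0672).

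ACAT2 had 156.9, 161 and 166.7 CPM in MPP, against 198.1, 200.6 and 201.8 CPM in DMSO, without overlap (log2 fold change -0.31 ± 0.072, edgeR adjusted p = 0.00415). TCP1 and SOD2 did not pass in MPP (log2 fold changes -0.01 and -0.11, edgeR adjusted p = 0.96 and 0.483). SREBF2 had 390.8, 405.4 and 376.3 CPM in MPP, against 303.3, 327.8 and 334.5 CPM in DMSO. Every MPP library was above every DMSO library (0.28 ± 0.085, edgeR adjusted p = 0.0291), but the call ended without DMSO replicate 1 (edgeR adjusted p = 0.155), DMSO replicate 2 (0.0721), MPP replicate 1 (0.0761) or MPP replicate 2 (0.126). STARD4 had 121.8, 115.9 and 134.2 CPM in MPP, against 154, 158 and 169.3 CPM in DMSO. It was lower without overlap (-0.37 ± 0.094, edgeR adjusted p = 0.00881), and the call ended without DMSO replicate 3 (edgeR adjusted p = 0.0544) or MPP replicate 2 (0.0656).

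LPIN1 (2:11677595-11827409, plus strand), which makes the diacylglycerol used for triglycerides and phospholipids, had 156.6, 145.5 and 166 CPM in MPP, against 113.4, 114.7 and 121.1 CPM in DMSO. The groups did not overlap (log2 fold change 0.42 ± 0.079, edgeR adjusted p = 0.000466), and the call held with each library left out in turn. Just short of the threshold were HMGCS1 (0.29, edgeR adjusted p = 0.0528), DHCR7 (0.30, edgeR adjusted p = 0.0542) and MSMO1 (0.26, edgeR adjusted p = 0.0657). Summed by role, the sterol genes stood at 1935 ± 42 CPM in MPP and 1847 ± 21.5 CPM in DMSO, the regulators at 711.8 ± 28 and 623.4 ± 25.9 CPM, and the transport genes at 185.3 ± 5.57 and 221.9 ± 8.5 CPM (SD, n = 3 each). Within these sums SREBF2 alone averaged 390.8 CPM in MPP and 321.9 CPM in DMSO, and STARD4 alone 124 and 160.4 CPM. NPC1 averaged 57.37 and 57.17 CPM. TH was lower in MPP (31.66 ± 1.45 CPM, against 50.81 ± 4.7 CPM in DMSO, edgeR adjusted p = 0.00087) while the dopaminergic markers as a whole summed to 749.7 to 889.8 CPM in MPP and 653.6 to 772.7 CPM in DMSO (0 of 9 called higher, 2 lower). Astrocyte markers summed to 45.54 to 49.14 CPM in MPP and 40.02 to 43.82 CPM in DMSO (1 of 6 higher, SLC1A3 at an edgeR adjusted p of 0.000699), and precursor and cycling markers to 384 to 416.6 and 347 to 369.8 CPM (1 of 8 higher, 1 lower). The part of marker shifts in the results was not tested.

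Set directly against MS275 at the same dose of 5 µM, MPP differed in 17 of the 32 genes, 10 higher and 7 lower (53.12%), against 50.8% of all genes tested (25.9% higher and 24.9% lower). On library totals without TMM scaling, which moved the median of all genes to -0.17, the split was 5 higher and 10 lower. Over all genes it was 3859 higher and 5552 lower, in place of 4884 and 4687. All MPP libraries were above all MS275 libraries in 11 genes, against 28.9% of all genes tested, and below them in 7, against 30.9%. The median log2 difference over the 32 genes was 0.08, and over all genes -0.06. STARD4, lower in MPP and higher in MS275 when each was set against DMSO, had 121.8, 115.9 and 134.2 CPM in MPP, against 283.3, 299.6 and 341.5 CPM in MS275. This was the largest difference of the 32 (log2 -1.31 ± 0.095, 95% interval -1.51 to -1.12, edgeR adjusted p = 3.87e-12). SREBF1 followed, with 109.1, 103.6 and 76.21 CPM in MPP and 254.8, 246.8 and 195.5 CPM in MS275, without overlap (-1.27 ± 0.13, edgeR adjusted p = 1.3e-09). INSIG1 was also lower in MPP, with 206.3, 206.7 and 212.1 CPM against 224 to 258.8 CPM in MS275 (-0.22 ± 0.071, edgeR adjusted p = 0.0118), a call that ended without MS275 replicate 2 (edgeR adjusted p = 0.0997).

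The enzymes split. NSDHL had 48.68, 46.94 and 46.18 CPM in MPP, against 28.07, 28.08 and 28.5 CPM in MS275 (log2 difference 0.75 ± 0.10, edgeR adjusted p = 5.18e-07). EBP had 121.5, 115.3 and 111.9 CPM in MPP, against 78.24, 77.36 and 72.42 CPM in MS275 (0.61 ± 0.092, edgeR adjusted p = 1.89e-06). These 2 late enzymes were higher in MPP than in MS275 in every library, as were ACAT2 (0.53 ± 0.072, edgeR adjusted p = 4.08e-07), SC5D (0.34, edgeR adjusted p = 0.00413), SQLE (0.32, edgeR adjusted p = 0.000493) and SCD (0.35, edgeR adjusted p = 3.49e-05). The values of ACAT2 were 156.9, 161 and 166.7 CPM in MPP and 107.4, 112.6 and 115.7 CPM in MS275. For SC5D they were 47.42, 51.3 and 57.27 CPM in MPP and 40.62, 40.91 and 42 CPM in MS275. For SCD they were 1100, 1133 and 1191 CPM in MPP and 849.9, 906.4 and 935 CPM in MS275. TM7SF2 had 59.7, 54.83 and 56.1 CPM in MPP, against 96.52, 93.83 and 79.55 CPM in MS275 (-0.66 ± 0.11, edgeR adjusted p = 9.4e-06). LSS had 182.8, 180.6 and 157 CPM in MPP, against 256.4, 267.3 and 233.3 CPM in MS275 (-0.54 ± 0.085, edgeR adjusted p = 3.89e-06). Both were lower in MPP than in MS275 without overlap.

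ABCA1, the pump that exports cholesterol to apolipoproteins, had 52.64, 60.89 and 57.42 CPM in MPP, against 69.19, 69.38 and 86.95 CPM in MS275. All MPP libraries were lower (log2 difference -0.40 ± 0.10, edgeR adjusted p = 0.00156), although ABCA1 passed the test in neither toxicant against DMSO. INSIG2 had 17.13, 16.47 and 15.31 CPM in MPP, against 8.51, 12.9 and 13.91 CPM in MS275 (0.48 ± 0.17, edgeR adjusted p = 0.021). Leaving out MS275 replicate 1, the lowest library, it fell short at 0.26 (edgeR adjusted p = 0.238), as it did without MPP replicate 1 (edgeR adjusted p = 0.0623). PMVK, phosphomevalonate kinase, had 17.99, 17.45 and 14.2 CPM in MPP, against 24, 22.3 and 18.5 CPM in MS275 (-0.39 ± 0.14, edgeR adjusted p = 0.0255), a call that ended without MS275 replicate 1 (edgeR adjusted p = 0.099), MS275 replicate 2 (0.076) or MPP replicate 3 (0.148). LPIN1 was higher in MPP by 0.27 (edgeR adjusted p = 0.00424; 0.0532 when MS275 replicate 1 was left out). The remaining calls, FDFT1 (0.17, edgeR adjusted p = 0.0361) and FADS1 (0.17, edgeR adjusted p = 0.0397), depended on several libraries. FDFT1 lost the call without MS275 replicate 1 (edgeR adjusted p = 0.0811), 2 (0.0543) or 3 (0.107) or MPP replicate 1 (0.102) or 3 (0.0744). FADS1 lost it without MS275 replicate 1 (edgeR adjusted p = 0.159) or 2 (0.0999) or MPP replicate 2 (0.0512) or 3 (0.122).

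**Figure D4:**
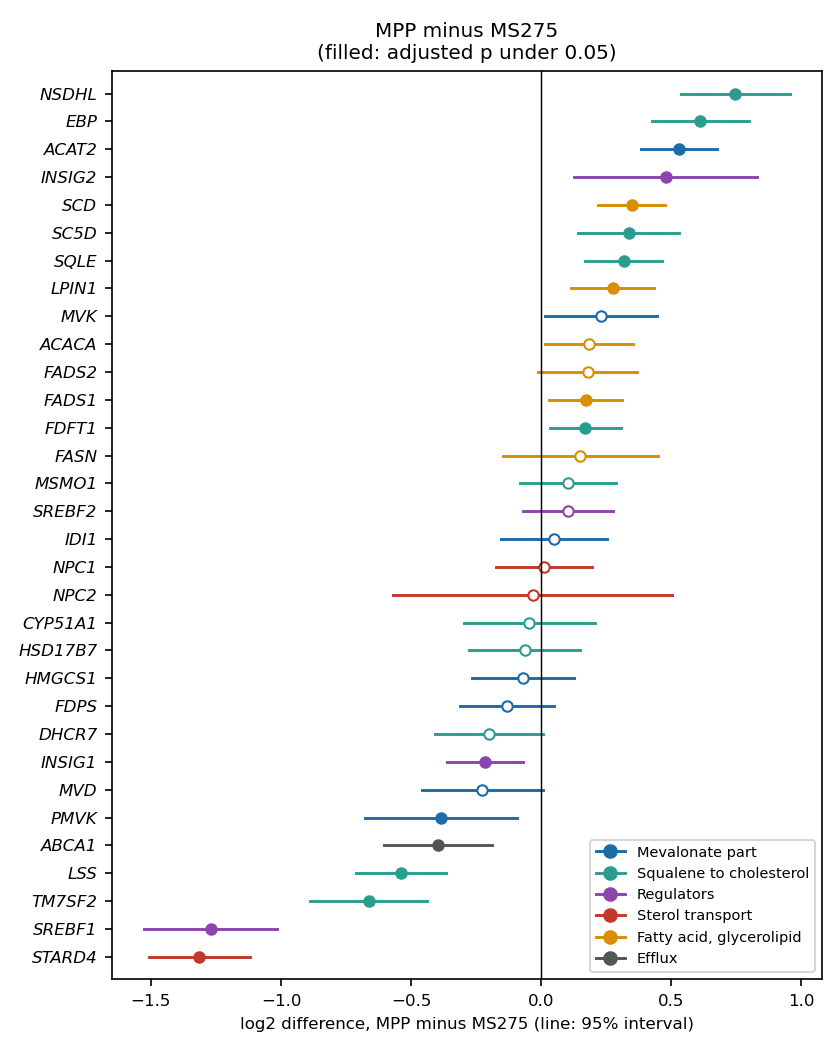
Difference between MPP and MS275 for the 32 genes, as log2 differences (MPP minus MS275) with 95% intervals; filled points have an edgeR adjusted p under 0.05. STARD4 (-1.31) and SREBF1 (-1.27) stand at the low end and NSDHL (0.75) at the high end.

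MPP and paraquat are both N-methylated pyridinium compounds given here at 5 µM; paraquat joins a pair of N-methylpyridinium rings, and MPP carries a phenyl ring in place of the second. Against paraquat, MPP was higher in 6 and lower in 4 of the 32 genes (31.25%), against 11% of all genes tested (6.04% higher and 4.94% lower). On library totals without TMM scaling it was higher in 2 and lower in 5. Over all genes the split then was 579 higher and 1608 lower, in place of 1139 and 931. All MPP libraries were above all paraquat libraries in 8 genes, against 17.7% of all genes tested, and below them in 7, against 16.3%. TM7SF2 had 59.7, 54.83 and 56.1 CPM in MPP, against 118.4, 91.38 and 110.2 CPM in paraquat, with no overlap (log2 difference -0.90 ± 0.11, edgeR adjusted p = 1.27e-06). SREBF2 had 390.8, 405.4 and 376.3 CPM in MPP, against 285, 289.1 and 335 CPM in paraquat, also without overlap (0.37 ± 0.085, edgeR adjusted p = 0.00415). LPIN1 had 156.6, 145.5 and 166 CPM in MPP, against 119.7, 123.2 and 117.8 CPM in paraquat (0.38 ± 0.079, edgeR adjusted p = 0.00168). ACAT2 had 156.9, 161 and 166.7 CPM in MPP, against 185.1, 203.4 and 212.9 CPM in paraquat (-0.31 ± 0.072, edgeR adjusted p = 0.00393). These 4 calls held with each library left out in turn. So did that of SCD, at 1100, 1133 and 1191 CPM in MPP and 939.2, 899.8 and 1010 CPM in paraquat (0.27 ± 0.063, edgeR adjusted p = 0.00563), which on unscaled library totals did not pass (0.17, edgeR adjusted p = 0.068).

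The other 5 differences between MPP and paraquat were less stable. STARD4 had 121.8, 115.9 and 134.2 CPM in MPP, against 149.1, 156 and 161.4 CPM in paraquat (log2 difference -0.33 ± 0.095, edgeR adjusted p = 0.022). LSS had 182.8, 180.6 and 157 CPM in MPP, against 201.7, 216.8 and 218.4 CPM in paraquat (-0.29 ± 0.085, edgeR adjusted p = 0.0232). FDFT1 had 596.9, 557.7 and 587 CPM in MPP, against 493.5, 471.3 and 515.1 CPM in paraquat (0.24 ± 0.067, edgeR adjusted p = 0.0202). In each of these the libraries of the 2 groups did not overlap. DHCR7 had 191, 180.8 and 167.4 CPM in MPP, against 149.9, 139.9 and 137.1 CPM in paraquat (0.34 ± 0.10, edgeR adjusted p = 0.0283). MSMO1 had 328, 314.9 and 351 CPM in MPP, against 254.4, 292.9 and 274.6 CPM in paraquat (0.27 ± 0.090, edgeR adjusted p = 0.0472). These 2 did not overlap either. With 1 library left out, STARD4 lost the call without paraquat replicate 2 (edgeR adjusted p = 0.066) or 3 (0.092) and without MPP replicate 1 (0.0699) or 2 (0.123). LSS lost it without paraquat replicate 2 (0.0875) or 3 (0.0951) or MPP replicate 3 (0.162), and FDFT1 without paraquat replicate 1 (0.0657) or 2 (0.109) or MPP replicate 1 (0.0873) or 3 (0.067). DHCR7 lost it without paraquat replicate 2 (0.0922) or 3 (0.109) or MPP replicate 1 (0.122) or 2 (0.087). MSMO1 lost it without paraquat replicate 1 (0.211) or 3 (0.114) or MPP replicate 1 (0.0933), 2 (0.067) or 3 (0.181). Genes for which no difference was called had intervals that still allow one: for SQLE the log2 difference was 0.05 (95% interval -0.09 to 0.20), and for SREBF1 0.10 (-0.16 to 0.35).

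Rotenone raised MSMO1, SQLE, INSIG1 and LPIN1 and lowered LSS, TM7SF2 and ACAT2. The edgeR test called 4 genes higher and 3 lower of 32 (21.88%), against 5.52% of all genes tested (2.76% in each direction). The rotenone libraries all lay above the DMSO libraries in 8 genes, against 9.61% of all genes tested, and below them in 5, against 11.3%. The median log2 fold change over the 32 genes was 0.09, and over all genes -0.01. MSMO1 (4:165327623-165343160, plus strand) had 456.2, 349.3 and 392.8 CPM in rotenone, against 261.5, 277.6 and 293.2 CPM in DMSO. All rotenone libraries were higher, with replicate 1 the highest (log2 fold change 0.53 ± 0.091, fold 1.44, edgeR adjusted p = 0.000376). SQLE had 409.8, 369.8 and 387.1 CPM in rotenone, against 320.7, 305.5 and 309.6 CPM in DMSO, without overlap (0.32 ± 0.072, edgeR adjusted p = 0.00621). INSIG1 (7:155297776-155310235, plus strand) had 257.5, 233.9 and 266.5 CPM in rotenone, against 199.4, 199.3 and 202.3 CPM in DMSO. It too was higher in every rotenone library (0.34 ± 0.071, edgeR adjusted p = 0.00364).

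LPIN1 had 153.3, 150.3 and 139 CPM in rotenone, against 113.4, 114.7 and 121.1 CPM in DMSO, without overlap (log2 fold change 0.34 ± 0.079, edgeR adjusted p = 0.00764). That call was just lost without DMSO replicate 2 (edgeR adjusted p = 0.0513). LSS had 149, 168.5 and 158 CPM in rotenone, against 202.8, 224.4 and 233 CPM in DMSO, without overlap (-0.48 ± 0.085, edgeR adjusted p = 0.000618). TM7SF2 had 70.22, 81.55 and 80.46 CPM in rotenone, against 109.1, 108.3 and 103.6 CPM in DMSO, again with all rotenone libraries lower (-0.47 ± 0.11, edgeR adjusted p = 0.00893). ACAT2 had 145.5, 164.7 and 149.2 CPM in rotenone, against 198.1, 200.6 and 201.8 CPM in DMSO, also lower throughout (-0.39 ± 0.072, edgeR adjusted p = 0.000959), while TCP1 and SOD2 did not pass (-0.06 and -0.07, edgeR adjusted p = 0.677 and 0.718). The p-values take the spread from all 8 groups, and with rotenone and DMSO fitted alone ACAT2 (edgeR adjusted p = 0.062), SQLE (0.0773), INSIG1 (0.08) and LPIN1 (0.0898) no longer passed, leaving LSS, TM7SF2 and MSMO1. The sum of the 11 sterol genes was 2064 ± 76.8 CPM in rotenone and 1847 ± 21.5 CPM in DMSO, and that of the regulators 708.9 ± 40.2 and 623.4 ± 25.9 CPM (SD, n = 3 each). The dopaminergic markers summed to 900.2 to 1245 CPM in rotenone and 653.6 to 772.7 CPM in DMSO (1 of 9 called higher, 0 lower). The 1 called was SLC6A3, at 1048 ± 181.5 CPM in rotenone and 635.7 ± 59.88 CPM in DMSO (edgeR adjusted p = 0.000131). The precursor and cycling markers summed to 468.5 to 493.7 and 347 to 369.8 CPM (2 of 8 higher, 0 lower). Their part in the results was not tested.

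In methyl mercury none of the 32 genes passed the edgeR test, against 0.286% of all genes tested (0.223% higher and 0.0637% lower), although 14 had an unadjusted p under 0.05, against 11.5% of all genes, and DESeq2 called 6, against 2.76% of the genes it tested. In 12 of the 32 genes all 3 methyl mercury libraries were above all DMSO libraries, against 9.9% of all genes tested, and in 2 all were below, against 9.95%. The 12 were IDI1 and HMGCS1 of the mevalonate route, FDFT1, SQLE, MSMO1, NSDHL, HSD17B7 and SC5D of the sterol enzymes, INSIG1, STARD4, SCD and LPIN1. LPIN1 had 152.7, 142.7 and 137.1 CPM in methyl mercury, against 113.4, 114.7 and 121.1 CPM in DMSO (log2 fold change 0.31 ± 0.079, edgeR adjusted p = 0.0945). SQLE had 374.9, 374.1 and 369.6 CPM in methyl mercury, against 320.7, 305.5 and 309.6 CPM in DMSO (0.26 ± 0.072, edgeR adjusted p = 0.12). INSIG1 had 233.5, 240 and 235.6 CPM in methyl mercury, against 199.4, 199.3 and 202.3 CPM in DMSO (0.24 ± 0.071, edgeR adjusted p = 0.152). In all 3 of these the groups were apart by more than the range within either group.

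MSMO1 had 335.1, 374.4 and 318.3 CPM in methyl mercury, against 261.5, 277.6 and 293.2 CPM in DMSO (log2 fold change 0.30 ± 0.090, edgeR adjusted p = 0.152). HSD17B7, a sterol keto-reductase, had 41.09, 47.23 and 43.05 CPM in methyl mercury, against 36.64, 34.25 and 34.56 CPM in DMSO (0.32 ± 0.10, edgeR adjusted p = 0.193). These too did not overlap, and neither passed. FASN had 473.5, 328.9 and 507 CPM in methyl mercury, against 585.9, 542.1 and 543.2 CPM in DMSO (-0.35 ± 0.15, edgeR adjusted p = 0.332), and its lowest library, replicate 2, was also the one with the most negative GC difference of its group (-0.47, against -0.19 and 0.08 in replicates 1 and 3). TM7SF2 had 88.49, 67.82 and 94.6 CPM in methyl mercury, against 109.1, 108.3 and 103.6 CPM in DMSO (-0.35 ± 0.11, edgeR adjusted p = 0.175). The same library was the lowest for both, and the part of GC content was not tested. Without replicate 3 of methyl mercury, LPIN1 passed (0.35, edgeR adjusted p = 0.0447). Summed by role, the mevalonate genes stood at 1278 ± 23.6 CPM in methyl mercury and 1136 ± 38.7 CPM in DMSO, and the sterol genes at 2026 ± 40.1 and 1847 ± 21.5 CPM (SD, n = 3 each). Astrocyte markers summed to 48.87 to 63.64 CPM in methyl mercury and 40.02 to 43.82 CPM in DMSO, with 0 of 6 called. Precursor and cycling markers summed to 374.7 to 480.6 CPM in methyl mercury and 347 to 369.8 CPM in DMSO (1 of 8 called higher, TOP2A at an edgeR adjusted p of 0.0365), and oligodendrocyte markers to 202 to 240.8 and 266.9 to 288.7 CPM (0 of 5 called). Their part was not tested.

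**Figure D5:**
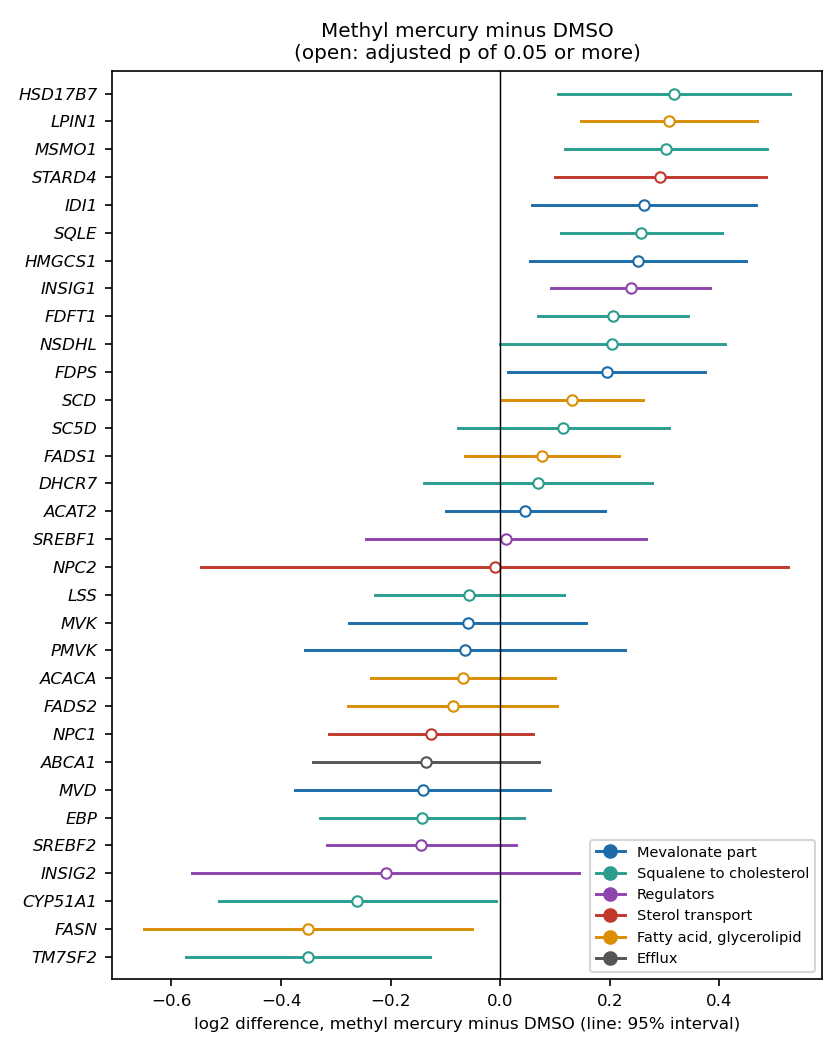
Difference between methyl mercury and DMSO for the 32 genes, as log2 fold changes with 95% intervals; open points did not pass the edgeR test. All points are open, and HSD17B7 (0.32) and LPIN1 (0.31) stand highest.

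Ziram, 6-HD and paraquat gave 0 calls among the 32 genes with edgeR, against 0.53% of all genes tested in ziram (0.408% higher and 0.122% lower), 0.0106% in 6-HD and 0% in paraquat. At an unadjusted p under 0.05 there were 4 genes in ziram (6.49% of all genes), 3 in 6-HD (5.7%) and 0 in paraquat (0.965%), and DESeq2 called 1 in ziram (1.19% of the genes it tested) and 0 in the others. All 3 libraries lay above those of DMSO in 4 genes in ziram (11% of all genes tested), 2 in 6-HD (5.85%) and 1 in paraquat (4.23%), and below them in 4 genes in ziram (10.2%), 5 in 6-HD (7.13%) and 2 in paraquat (4.34%). The gene that DESeq2 called in ziram was ACAT2, with 165.1, 168.2 and 168.7 CPM in ziram against 198.1, 200.6 and 201.8 CPM in DMSO. The groups were apart by more than their spread (log2 fold change -0.26 ± 0.071, edgeR adjusted p = 0.12; DESeq2 adjusted p = 0.00287). HMGCS1 had 620.8, 572.2 and 546.6 CPM in ziram, against 471.1, 490.9 and 527.9 CPM in DMSO, without overlap (0.22 ± 0.097, edgeR adjusted p = 0.637). In 6-HD the log2 fold changes of the 32 genes ran from -0.30 (CYP51A1) to 0.15 (LPIN1), and in paraquat from -0.30 (NPC2) to 0.09 (FASN). The interval of SREBF1 in paraquat, -0.21 to 0.30 around 0.05, shows the size of change that these libraries leave possible. The 32 genes summed to 6893 ± 104 CPM in ziram, 6661 ± 5.75 CPM in 6-HD, 6710 ± 179 CPM in paraquat and 6852 ± 46.7 CPM in DMSO.

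Across toxicants, 5 genes were called in more than 1 comparison with DMSO in the same direction. These were ACAT2 (lower in MS275, MPP and rotenone), LSS and TM7SF2 (lower in MPP and rotenone), LPIN1 (higher in MPP and rotenone) and INSIG1 (higher in MS275 and rotenone). Of all genes tested, 7.33% were called in 2 toxicants and 1.73% in 3, in either direction. The share called in the same direction was not counted, and all comparisons used the same 3 DMSO libraries. SQLE was lower in MS275 and higher in rotenone, and STARD4 higher in MS275 and lower in MPP. Among the calls named so far, both of SQLE ended under at least 1 alternative. So did those of STARD4 and LSS in MPP, and of ACAT2, INSIG1 and LPIN1 in rotenone. Against DMSO the edgeR fit called MSMO1 in rotenone, and DESeq2 also called it in methyl mercury (log2 fold change 0.32, DESeq2 adjusted p = 0.0421). The difference of rotenone from the other toxicants was not tested.

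Other genes around the pathway were counted in 7 lists. In MS275, 0 of 11 genes of SREBP processing were higher and 5 lower (median log2 fold change -0.21), among them UBXN8 at 6.34 ± 0.103 CPM in MS275 and 11.03 ± 0.255 CPM in DMSO (-0.80, edgeR adjusted p = 0.000606). Of 12 genes of the isoprenoid branch, which draws on farnesyl diphosphate, 0 were higher and 6 lower (median -0.38), such as FNTA, the shared subunit of the farnesyl and geranylgeranyl transferases, at 43.1 ± 2.33 CPM in MS275 and 67.88 ± 1.98 CPM in DMSO (edgeR adjusted p = 3.19e-06). Of 9 LXR targets and efflux genes, 4 were higher and 2 lower (median 0.37). The largest was MYLIP, a ubiquitin ligase for lipoprotein receptors, at 77.48 ± 3.94 CPM in MS275 and 12.98 ± 0.436 CPM in DMSO (log2 fold change 2.58 ± 0.12, edgeR adjusted p = 4.27e-16), and ABCG1, a cholesterol exporter, stood at 47.94 ± 1.73 CPM in MS275 and 26.69 ± 1.64 CPM in DMSO (0.84, edgeR adjusted p = 2.68e-06). SMPDL3A was lower, at 3.09 ± 0.789 CPM in MS275 and 5.87 ± 0.504 CPM in DMSO (-0.91, edgeR adjusted p = 0.00794).

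Of 13 genes of fatty acid oxidation, 3 were higher and 1 lower in MS275, led by CPT1A, which admits fatty acids to mitochondria, at 51.84 ± 5.91 CPM in MS275 and 10.38 ± 0.74 CPM in DMSO (log2 fold change 2.31 ± 0.18, edgeR adjusted p = 1.86e-11). Of 20 other fatty acid enzymes tested, 4 were higher and 4 lower, with the fatty acid ligase ACSL3 at 449.4 ± 9.76 CPM in MS275 and 272 ± 17.5 CPM in DMSO (0.72, edgeR adjusted p = 3.44e-09). Of 13 glycerolipid genes, 5 were higher and 4 lower, with DGAT2, which makes triglycerides, at 19.27 ± 5.75 CPM in MS275 and 8.31 ± 0.178 CPM in DMSO (1.22, edgeR adjusted p = 2.41e-06). LPIN3 was also higher (1.30, edgeR adjusted p = 0.00209) and CEPT1 lower (-1.02, edgeR adjusted p = 1.35e-06). Of 9 sterol ester and oxysterol genes, 0 were higher and 2 lower, SOAT1 (-0.73, edgeR adjusted p = 0.000754) and OSBPL8 (-0.54, edgeR adjusted p = 6.55e-05). These counts stand against the 20.1% higher and 23% lower among all genes.

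In MPP, where 5.77% of all genes were higher and 5.02% lower, 3 of 13 genes of fatty acid oxidation were higher and 3 lower, with CPT1A at 16.4 ± 1.17 CPM in MPP and 10.38 ± 0.74 CPM in DMSO (log2 fold change 0.65, edgeR adjusted p = 0.0152) and CPT2, its partner inside mitochondria, at 12.29 ± 1.01 and 21.46 ± 1.78 CPM (-0.80, edgeR adjusted p = 0.0002). CHKA, the choline kinase of phosphatidylcholine synthesis, stood at 52.57 ± 4.12 CPM in MPP and 23.66 ± 2.81 CPM in DMSO (1.15 ± 0.12, edgeR adjusted p = 1.29e-07), and was 1 of 2 glycerolipid genes called higher. SREBP processing, LXR targets and the isoprenoid branch each had 1 gene higher and 0 lower in MPP, the other fatty acid enzymes 1 each way, and the sterol ester genes 0. In rotenone, where 2.76% of all genes were called in each direction, CPT1A was higher (19.92 ± 6.73 CPM, against 10.38 ± 0.74 CPM in DMSO, 0.90, edgeR adjusted p = 0.00239) and CPT2 lower (15.11 ± 2.92, against 21.46 ± 1.78 CPM, -0.48, edgeR adjusted p = 0.0388). PAQR3 of SREBP processing (0.39, edgeR adjusted p = 0.0346) and ACSL3 (0.27, edgeR adjusted p = 0.0244) were also higher in rotenone, and the other 4 lists had no call. In ziram, where 0.53% of all genes were called, ME1, a source of NADPH for fatty acid synthesis, stood at 14.05 ± 3.35 CPM in ziram and 4.92 ± 1.49 CPM in DMSO (1.48 ± 0.24, edgeR adjusted p = 0.000643), and ACSL1 was lower (-0.35, edgeR adjusted p = 0.0235). No gene of the 7 lists was called in paraquat or 6-HD.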

How the data were processed

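RNA from 24 LUHMES cultures was selected for polyadenylated transcripts, depleted of ribosomal RNA and sequenced from TruSeq libraries, per the labels' protocols. Reads were aligned with STAR to GRCh38 and counted with HTSeq, per the submitters' processing notes. Tool versions, annotation, strand and multi-mapping settings were not given in the sources used here. Per gene, the authors deposited raw counts for 58051 genes. All 24 columns were used, and 266 genes have no name. A deposited normalized matrix was not used.

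Counts were fitted with edgeR 4.0.16 in R 4.3.3, with TMM scaling, its default expression filter (18852 genes) and 1 coefficient per group over the 24 libraries (16 residual degrees of freedom). The quasi-likelihood test was adjusted by Benjamini-Hochberg over all 18852 genes, at 0.05. CPM use the TMM-scaled totals, and folds are given as log2 values with the fitted SE. Intervals are at 95%. Exon length, GC content and coordinates come from GENCODE 29, matched by Ensembl identifier, and promoter windows from RefSeq. Reads of FDPS, CYP51A1, HSD17B7, SCD and FADS2 may be shared with named pseudogenes, and 17 of the 32 genes overlap another gene, 16 on the opposite strand. The fit was tested on simulated counts.

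Genes were given with a value in every library where they passed the test, up to 12 per comparison by size of the log2 fold change. Alternatives were RLE scaling, unscaled totals, no expression filter, DESeq2 1.42.0, a replicate block, each pair of groups fitted alone, each library left out in turn and, added after seeing the data, GC-corrected offsets. The members and lists were chosen with earlier results of these data known. A list of further sterol pathway genes is not reported here. Figures were drawn with matplotlib 3.10.9.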

Additional observations from a re-analysis of the deposited data

Results flagged for a closer look

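STARD4, the sterol carrier, was called in opposite directions in MPP and MS275 when each was set against the same DMSO libraries, and the test of MPP against MS275 itself gave a log2 difference of -1.31 (edgeR adjusted p = 3.87e-12; lower in 3 of 3 MPP libraries). The MPP libraries had 121.8, 115.9 and 134.2 CPM, and the MS275 libraries 283.3, 299.6 and 341.5 CPM. The difference was called under every alternative run, with log2 values from -1.46 to -1.23. The exons of STARD4 share 2.18% of their bases with STARD4-AS1 on the opposite strand. Groups of 3 libraries were not examined for outlying samples.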

How the results depend on the processing

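Of 54 calls of a gene in a comparison, 31 held under every alternative run and 0 reversed. These were 11 of 13 in MS275, 3 of 7 in MPP (ACAT2, TM7SF2 and LPIN1), 3 of 7 in rotenone (LSS, TM7SF2 and MSMO1), 4 of 10 for MPP against paraquat (ACAT2, TM7SF2, SREBF2 and LPIN1) and 10 of 17 for MPP against MS275. With GC-corrected offsets the number of genes called was 20 in MS275 (13 in the analysis reported), 15 in MPP (7), 15 in rotenone (7), 1 in ziram (0) and 2 in methyl mercury (0). Over all genes the same offsets gave 9011 in MS275 (8136), 3315 in MPP (2034), 2040 in rotenone (1041), 252 in ziram (100) and 291 in methyl mercury (54). With the 2 groups fitted alone it was 16 in MPP, 3 in rotenone and 2 in ziram, and over all genes 3983, 211 and 586. DESeq2 called 1 in ziram and 6 in methyl mercury, against 1.19% and 2.76% of the genes it tested. Without the expression filter 1 was called in methyl mercury (FASN, -0.35, edgeR adjusted p = 0.0057), against 0.652% of all genes. The causes were not tested. With each library left out in turn, the counts ran from 11 to 14 in MS275 (34.3% to 40.5% of all genes tested) and 4 to 6 in MPP (5.77% to 7.23%). They ran from 6 to 10 in rotenone (2.44% to 8.22%) and 0 to 1 in methyl mercury (0.0354% to 0.86%). For MPP against paraquat they were 7 to 8 (5.85% to 7.47%), and for MPP against MS275 12 to 19 (42.6% to 47.2%). Over all groups they were 24 to 25 (46% to 60.2%). The count of 4 in MPP was without DMSO replicate 3, and that of 10 in rotenone was without rotenone replicate 1 (8.22% of all genes). Paraquat and 6-HD gave 0 throughout. In MS275, SQLE and SCD also fell short with RLE scaling (adjusted p = 0.057 and 0.0935). RLE scaling and DESeq2 moved the median log2 difference of all genes between MPP and MS275 to -0.12 and -0.15, and DESeq2 moved that between MS275 and DMSO to 0.11. For MPP against MS275, FDFT1, FADS1, INSIG2, SC5D and LPIN1 each lost the call under at least 1 of RLE scaling, unscaled totals and DESeq2, INSIG1 without the expression filter and PMVK with GC-corrected offsets.

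Libraries with the same replicate number deviated together only weakly (correlations from -0.06 to 0.11), and the main fit did not pair them. This check cannot show whether cultures with the same number were handled together. With the replicate number as a block, 52 of the 54 calls held, and the counts were 13 in MS275, 8 in MPP and 7 in rotenone. Over all genes the shares in that fit were 42.1%, 9.87% and 4.72%. MSMO1 (MPP against paraquat, adjusted p = 0.0641) and FADS1 (MPP against MS275, adjusted p = 0.0522) were lost, and HMGCS1 in MPP was gained (adjusted p = 0.0473). With 3 libraries a group, log2 fold changes had SEs of 0.06 to 0.27 among the 32 genes. NPC2, with 65 to 120 counts per DMSO library, was the least precise.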
